A study of Mus musculus with 8 samples.

Results

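The tetraspanins are small proteins that cross the membrane with 4 helices and gather integrins, coreceptors, proteases and other surface proteins into patches on the cell surface. The transcripts of 10 of them were followed in sorted CD8SP thymocytes of Ndrg3 TKO (Ndrg3 fl/fl;Lck-cre+) and Ndrg3 ctrl (Ndrg3 +/fl;Lck-cre+) mice. These 10 were Tspan32, Cd82, Cd81, Cd37, Cd53, Cd151, Cd9, Cd63, Tspan13 and Tspan31. The 10 genes were chosen by name, from among 47937 genes in the counts, with the contrast between Ndrg3 TKO and Ndrg3 ctrl cells already known, so their differences between the groups are given as a description and not as an independent test. Among them, 9 had enough counts to be tested and Cd63 did not. In these cells the Ndrg3 TKO libraries held more Tspan32 and Cd82 RNA, by 45.0% and 26.6%, while Cd53, the most abundant of the 10, differed by less than the spread between libraries (log2 fold change 0.01).

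The libraries came from mature CD8 thymocytes, sorted as CD8SP, TCRβ+ and MHC-I high, of mice 6 to 7 weeks old. The 4 Ndrg3 ctrl mice were Ndrg3 +/fl;Lck-cre+ and the 4 Ndrg3 TKO mice Ndrg3 fl/fl;Lck-cre+, with 1 library a mouse. All 8 mice thus carried the Cre transgene, which the proximal Lck promoter drives in thymocytes, and the controls carried 1 floxed Ndrg3 allele themselves. The contrast is therefore fl/fl against +/fl under Cre, and not against cells in which both Ndrg3 alleles were left intact.

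Total counts ran from 21126698 to 30048212 in the Ndrg3 ctrl and from 29699102 to 32668081 in the Ndrg3 TKO libraries (exact permutation test, 2-sided, p = 0.0571; the smallest p that 4 against 4 allows is 0.0286). The floor of 3 counts was worth 0.0918 to 0.142 CPM (counts scaled to a fixed library size) in the 8 libraries. Ndrg3, on chromosome 2 from 156927345 to 156992056, fell from 2336 ± 28.9 to 1500.1 ± 87.2 normalized counts (mean ± SD, n = 4 each, log2 fold change -0.64, SE 0.0526, adjusted p = 1.04e-05 by the quasi-likelihood test of edgeR). These counts cover all exons of Ndrg3 and not the floxed exon alone. A normalized count is a gene's count brought to the mean library total after TMM scaling, a correction for differences in library makeup. The CD8SP markers were present in all libraries, with a summed level of 6704 to 7633 CPM in Ndrg3 ctrl and 6591 to 7176 CPM in Ndrg3 TKO, and 0 of 10 were called. Replicate 2 of the Ndrg3 ctrl and replicates 2 and 3 of the Ndrg3 TKO libraries held 340.5 to 416.3 CPM of Y-linked RNA, against at most 0.0752 CPM in the others. With bulk RNA, a change in the number of cells of a type and a change in RNA per cell cannot be told apart.

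Tetraspanins work largely through their partners. Cd81 is widely expressed and known for its role in B cells, Cd151 binds laminin-receptor integrins, Cd9 binds integrins and Ig-family proteins, and Cd63 marks late endosomes and lysosomes. Cd37, Cd53 and Tspan32 are largely restricted to blood cells, and T cells of mice without Tspan32 were described as dividing more readily on stimulation. Cd82, known as a metastasis suppressor, can act as a costimulator on T cells. Tspan5 and Tspan14 are 2 of the tetraspanins that escort the protease Adam10 to the cell surface.

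The promoter windows of Tspan32 and Cd82, the 2 members called higher, and of Cd81, the next gene downstream of Tspan32 on its strand, are shown to place their start sites. Each runs 5′ to 3′ on the gene's own strand, from 250 bases before to 50 bases after a RefSeq start (GRCm38.p6). Capitals mark the RUNX core TGTGGT and the GC box GGGCGG, on either strand. The windows lie at chr7:143004796-143005095 (plus strand) for Tspan32, at chr2:93462901-93463200 (minus strand) for Cd82 and at chr7:143052500-143052799 (plus strand) for Cd81.
Tspan32: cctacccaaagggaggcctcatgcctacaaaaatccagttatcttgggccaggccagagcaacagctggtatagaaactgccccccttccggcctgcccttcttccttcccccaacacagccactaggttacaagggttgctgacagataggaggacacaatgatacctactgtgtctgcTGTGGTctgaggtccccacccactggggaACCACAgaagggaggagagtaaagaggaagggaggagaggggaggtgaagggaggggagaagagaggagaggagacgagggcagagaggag
Cd82: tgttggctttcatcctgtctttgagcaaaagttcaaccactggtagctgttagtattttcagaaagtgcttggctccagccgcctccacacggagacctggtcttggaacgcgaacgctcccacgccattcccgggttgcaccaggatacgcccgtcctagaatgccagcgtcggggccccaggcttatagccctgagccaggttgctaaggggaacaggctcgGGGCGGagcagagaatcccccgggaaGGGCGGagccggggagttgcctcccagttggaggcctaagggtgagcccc
Cd81: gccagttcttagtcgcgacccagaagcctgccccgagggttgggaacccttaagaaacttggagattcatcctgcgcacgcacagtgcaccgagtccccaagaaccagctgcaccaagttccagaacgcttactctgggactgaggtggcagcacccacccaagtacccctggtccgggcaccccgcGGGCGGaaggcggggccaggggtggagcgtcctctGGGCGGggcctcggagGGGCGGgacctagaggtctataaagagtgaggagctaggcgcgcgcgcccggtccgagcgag

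The 3 windows differed in the letters searched. The Tspan32 window held 2 RUNX cores, which began 70 and 41 bases before the start, and 0 GC boxes. Of 27025 promoter windows of this length, 16.9% held a RUNX core and 1.8% held at least 2. The Cd82 window, 1 of 4 given for the gene and the farthest upstream, held 2 GC boxes and 0 RUNX cores, and the Cd81 window held 3 GC boxes. A GC box stood in 35.9% of all windows and in 6 of the 10 members' windows, and at least 3 stood in 10.7% of all windows. A RUNX core stood in 2 of the 10, those of Tspan32 and Cd53.

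The last 100 bases of the Tspan32 window were 90.0% purines, against a median of 51.0% over all windows, and 0.03% of the windows reached that share. That stretch was singled out after the sequence was seen. Of the other motifs searched on both strands, the ETS core GGAAGT stood in 3 of the 10 windows and in 24.1% of all windows, the T-box letters GGTGTGA in 0 of the 10 and 4.0%, the E-box CACGTG in 1 of the 10 and 7.2%, and TATAAA in 1 of the 10 and 14.2%. The matches in the 10 windows did not overlap each other. A match in these windows describes the letters and is not evidence of binding.

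The members spanned a wide range of RNA levels in CD8SP thymocytes. On the RPKM scale (counts scaled to exon length and to the TMM-scaled library), the Ndrg3 ctrl mean was 316 ± 34.2 for Cd53, 67.2 ± 6.25 for Cd82, 46.4 ± 3.65 for Tspan13 and 23.2 ± 2.02 for Tspan32 (SD, n = 4). Next came Tspan31 with 10.1 ± 1.41, Cd37 with 9.07 ± 0.641, Cd81 with 8.32 ± 0.786, Cd9 with 5.99 ± 1.04, Cd151 with 3.14 ± 0.232 and Cd63 with 0.031 ± 0.00917 RPKM. The libraries' ranges overlapped between Tspan31 and Cd37 and between Cd37 and Cd81, and did not overlap between the other neighbours in this order. Cd53 lay above 99.5% and Tspan32 above 84.6% of the tested genes by its RPKM level in Ndrg3 ctrl.

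**Figure D1:**
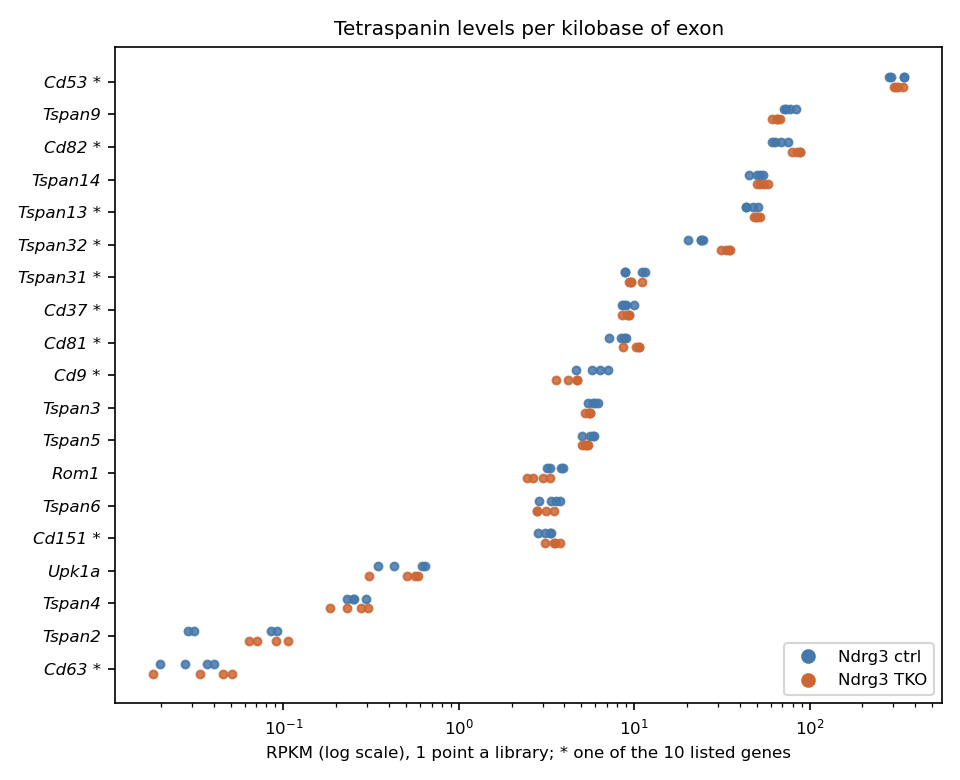
RPKM levels (log axis) of the tetraspanin genes tested here and of Cd63, with 1 point a library, blue for Ndrg3 ctrl and orange for Ndrg3 TKO, and an asterisk for each of the 10 listed genes. Genes are ordered by their Ndrg3 ctrl mean, from Cd53 at 316 RPKM down to Cd63 at 0.031 RPKM, and the 2 groups stand fully apart for Tspan32, Cd82 and Tspan9.

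In Ndrg3 TKO cells the order of the 10 was the same down to Tspan32, and Cd81, with 10.1 ± 0.946 RPKM, ranked above Tspan31 with 9.89 ± 0.792 and Cd37 with 9.08 ± 0.365. The ranges of these 3 neighbours overlapped in Ndrg3 TKO, and so did those of Cd9 and Cd151. The summed RPKM of 31 tetraspanin genes, the 10 and 21 others, was 636 ± 49.8 in Ndrg3 ctrl and 659 ± 21.2 in Ndrg3 TKO, and the ranges overlapped. Of that sum, 6 genes (Cd53, Tspan9, Cd82, Tspan14, Tspan13 and Tspan32) made up 91.2% in Ndrg3 ctrl. Cd53 alone gave 49.7% in Ndrg3 ctrl and 48.2% in Ndrg3 TKO. The share of Cd82 was 10.1% to 11.2% in the Ndrg3 ctrl and 12.4% to 13.2% in the Ndrg3 TKO libraries, and that of Tspan32 was 2.99% to 4.19% and 4.58% to 5.38%. The share of Tspan9 went the other way, from 10.8% to 13.1% in Ndrg3 ctrl to 9.49% to 10.5% in Ndrg3 TKO. By mean RPKM, Tspan9 ranked second in Ndrg3 ctrl and Cd82 second in Ndrg3 TKO. In Ndrg3 ctrl the ranges of the 2 genes overlapped, at 71.9 to 83.2 RPKM for Tspan9 and 61.4 to 75.4 for Cd82, and in replicate 2 Cd82 was the higher. In Ndrg3 TKO they did not overlap, at 61.1 to 68.0 for Tspan9 and 79.0 to 88.4 for Cd82.

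Of the 9 members tested, 2 were called higher in Ndrg3 TKO, Tspan32 and Cd82, and 0 were called lower (adjusted p under 0.05 by the quasi-likelihood test of edgeR, Benjamini-Hochberg over 14633 genes). Over all tested genes 1.15% were called and 0.793% were called higher. The groups did not overlap for the same 2 members, against 7.04% of all tested genes. The median log2 fold change of the 9 was 0.11, beside 0.00 for all tested genes, and 7 of the 9 lay above 0. Because the 10 were picked with this contrast known, nothing is read from these counts.

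Tspan32 (chromosome 7, 143005046 to 143019644, plus strand) had the largest difference of the 9 in size. Its normalized counts were 4316, 3645, 4332 and 4446 in Ndrg3 ctrl replicates 1 to 4 and 6259, 5642, 6368 and 6022 in Ndrg3 TKO replicates 1 to 4. The lowest Ndrg3 TKO library lay well above the highest Ndrg3 ctrl library, and replicate 2 was the lowest in both groups. The means were 4185 ± 364 and 6073 ± 321 (SD, n = 4 each), a log2 fold change of 0.54 with SE 0.0649, a 95% interval of 0.40 to 0.68 and an adjusted p of 5.25e-04. Ndrg3 ctrl replicate 2, which stood apart here, is also the library with the lowest total and the only Ndrg3 ctrl library with Y-linked RNA. Without this library the log2 fold change was 0.47 (adjusted p = 2.87e-04).

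**Figure D2:**
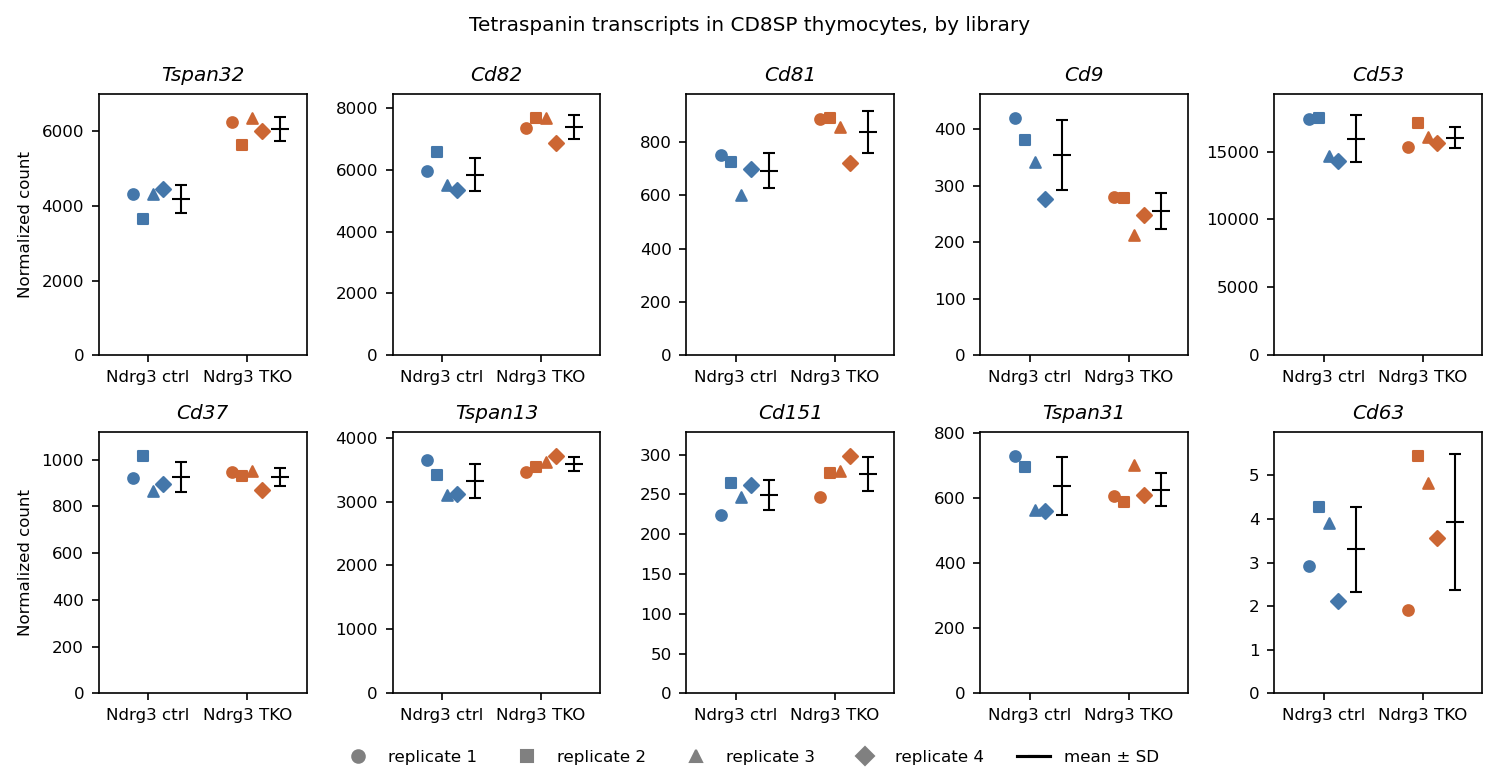
Normalized counts of the 10 members (each panel's axis starts at 0), with 1 point a library, symbols for the replicate numbers and bars for mean ± SD (n = 4 each), blue for Ndrg3 ctrl and orange for Ndrg3 TKO. The Tspan32 and Cd82 groups do not overlap, those of Cd81 and Cd9 overlap by 1 library at the edge, and the Cd63 axis ends at a few counts.

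Cd82 (chromosome 2, 93419111 to 93463140, minus strand) had normalized counts of 5961, 6561, 5522 and 5339 in the Ndrg3 ctrl libraries and 7340.1, 7689, 7691 and 6869 in the Ndrg3 TKO libraries. The groups did not overlap, but the highest Ndrg3 ctrl library, replicate 2 with 6561, came close to the lowest Ndrg3 TKO library, replicate 4 with 6869. The means were 5846 ± 544 and 7397 ± 389, with a log2 fold change of 0.34, SE 0.0657, a 95% interval of 0.20 to 0.48 and an adjusted p of 0.0204. The call depended on single libraries: the adjusted p rose to 0.0527 without Ndrg3 ctrl replicate 1, 0.0845 without replicate 3 and 0.0651 without replicate 4, and to 0.0543 without Ndrg3 TKO replicate 1 and 0.0862 without replicate 3, while the log2 fold change stayed between 0.30 and 0.40. Tspan32 was called in all 15 fits, with an adjusted p of at most 0.00326. With the presence of Y-linked RNA as a covariate, the log2 fold change was 0.57 for Tspan32 and 0.30 for Cd82, and both were called. Among the libraries with Y-linked RNA, 1 Ndrg3 ctrl library stands against 2 Ndrg3 TKO libraries, and both Tspan32 and Cd82 were higher in the latter.

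**Figure D3:**
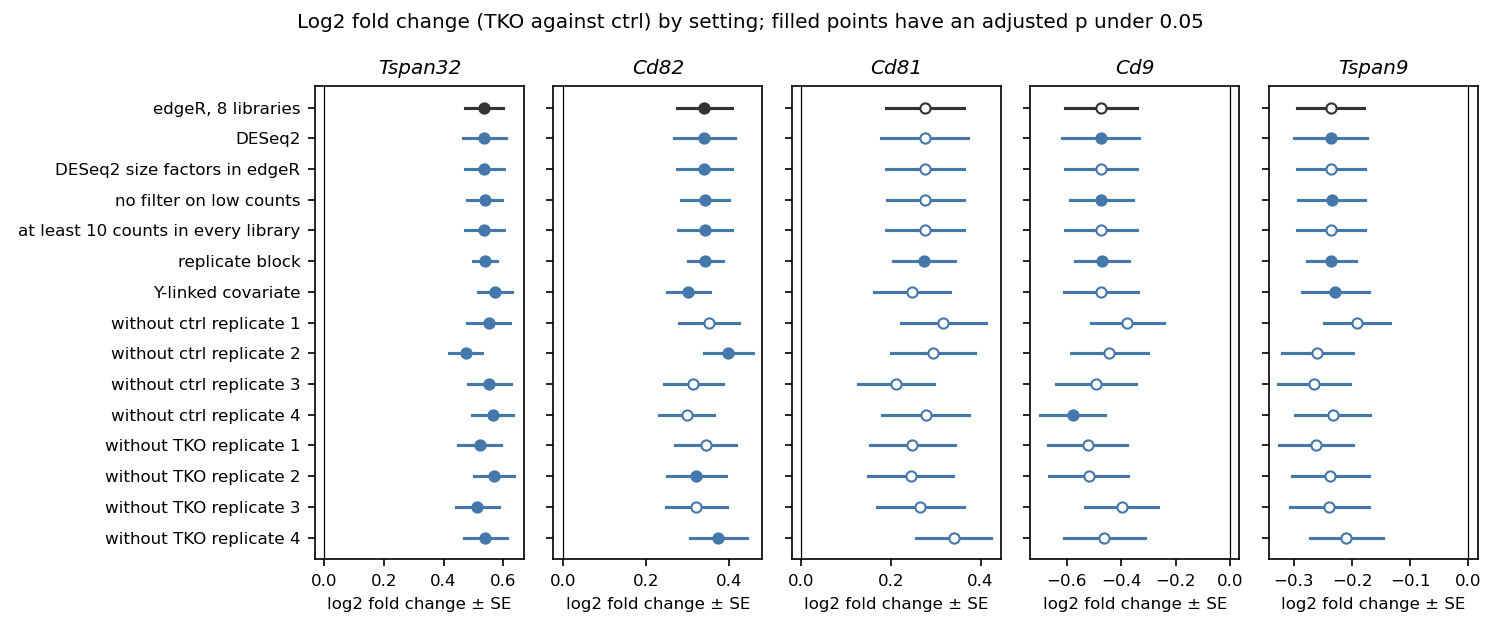
Log2 fold change (Ndrg3 TKO against Ndrg3 ctrl) ± SE of Tspan32, Cd82, Cd81, Cd9 and Tspan9 under the 15 fits, filled where the adjusted p is under 0.05. Tspan32 is filled throughout, Cd82 is open in 5 fits that leave out a library, Cd81 is filled in 1 fit, and Cd9 and Tspan9 in 4 fits each.

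Within the groups, the relation of Tspan32 to Cd82 turned on few libraries. After the mean of each group was subtracted from the log2 CPM, Pearson's r between them over the 8 libraries was -0.70 and Spearman's rho -0.48, but r was 0.15 without replicate 2 of both groups, so the first value rests on those libraries. The 3 tested genes most like Tspan32 on this measure were Gm16089 (r = 0.99), Gm24145 (r = 0.98) and Dram2 (r = 0.98), and those most like Cd82 were Twnk (r = 0.99), Usp5 (r = 0.99) and Dhcr7 (r = 0.99). These were picked as the highest of all tested genes over 8 libraries, which differ in depth, and none of the 6 was called between the groups. Gm16089 (log2 fold change 0.74, SE 0.529) and Gm24145 (0.79, SE 0.281) had low counts, under 10 in at least 1 library. Among the members, Cd82 followed Cd37 (r = 0.90) and Cd53 (r = 0.85) most closely, and Tspan13 followed Tspan31 (r = 0.84). Tspan32 went against Cd53 (r = -0.68) and Cd37 (r = -0.60). The first 3 were the highest of all member pairs, and none of these values was checked with a library left out. Replicate 2 was the highest Ndrg3 ctrl library for Cd82, Cd37 and Cd53.

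Genes beside Tspan32 and Cd82 give the context of their positions. Tspan32 and Cd81 lie on the plus strand of chromosome 7, 33094 bases apart, with R74862, which also overlaps Cd81, as the only gene between them. R74862 went from 23.2 normalized counts in the controls to 20.6 (log2 fold change -0.16, adjusted p = 0.891). On the other side, Mrpl23, a subunit of the mitochondrial ribosome, is the nearest tested gene, 464298 bases away, and its log2 fold change was 0.00 (adjusted p = 0.992). On one side of Cd82 the nearest tested gene is Trp53i11, at a distance of 217351 bases. Between them lies Tspan18, which was too low to be tested, 84605 bases from Cd82. Trp53i11 was called higher, from 3339 to 4012 normalized counts (log2 fold change 0.26, SE 0.0459, adjusted p = 0.00955), and its adjusted p was 0.0566 without Ndrg3 TKO replicate 3. Ext2, an enzyme of heparan sulphate synthesis, is the nearest tested gene on the other side of Cd82, and its log2 fold change was -0.002 (adjusted p = 0.994). Cd82 and the deleted Ndrg3 share chromosome 2 but lie 63464204 bases apart.

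Cd81 (chromosome 7, 143052739 to 143067934) had normalized counts of 750.1, 725, 601 and 699 in Ndrg3 ctrl and 885, 892, 855 and 723 in Ndrg3 TKO. All Ndrg3 TKO libraries except replicate 4 lay above every Ndrg3 ctrl library. The means were 694 ± 65.5 and 839 ± 78.9, with a log2 fold change of 0.28, SE 0.0868, a 95% interval of 0.09 to 0.46, an unadjusted p of 0.00669 and an adjusted p of 0.202 by edgeR, and Cd81 was not called. With the replicate number as a block in edgeR the adjusted p was 0.0265, though the numbers do not pair all libraries.

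Cd9 (chromosome 6, 125460266 to 125494791) was the one member whose value lay well below 0. Its normalized counts were 420.2, 379.7, 341 and 276 in Ndrg3 ctrl and 280.1, 278, 213 and 248 in Ndrg3 TKO. The lowest Ndrg3 ctrl library, replicate 4, lay among the Ndrg3 TKO libraries. With means of 354 ± 61.2 and 255 ± 31.6 and a log2 fold change of -0.47 (SE 0.132, 95% interval -0.76 to -0.19), the adjusted p was 0.131 with edgeR and 0.0467 with DESeq2. It was 0.00831 in edgeR with the replicate number as a block. Cd9 is abundant on platelets, and of the platelet markers Pf4 had 0 counts in all libraries. Itga2b was present in all libraries, with a mean of 68.8 normalized counts in Ndrg3 ctrl and 84.3 in Ndrg3 TKO. The groups overlapped for Itga2b (log2 fold change 0.29, adjusted p = 0.579 by edgeR). The summed level of 5 platelet and red cell markers, mostly Itga2b, was 2.06 to 2.93 CPM in Ndrg3 ctrl and 2.42 to 3.44 CPM in Ndrg3 TKO. Of the 5, 3 were at 0 in all libraries.

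The leukocyte tetraspanins Cd53 and Cd37 had values close to 0. Cd53 (chromosome 3, 106759921 to 106790149) had 14288 to 17499.8 normalized counts in Ndrg3 ctrl and 15317 to 17069 in Ndrg3 TKO, with a log2 fold change of 0.01 and a 95% interval of -0.15 to 0.16. Cd37 (chromosome 7, 45233632 to 45239115) had 866 to 1017 and 871 to 950.2, with a log2 fold change of 0.00 and a 95% interval of -0.14 to 0.14. Both intervals lie below that of Tspan32. For both genes the adjusted p was 0.989 or above.

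Tspan13 (chromosome 12, 36014557 to 36042500), the third most abundant of the members, had 3103 to 3643 normalized counts in Ndrg3 ctrl and 3464 to 3717 in Ndrg3 TKO (log2 fold change 0.11, 95% interval -0.01 to 0.24, adjusted p = 0.527). Cd151 (chromosome 7, 141467392 to 141471473) had 224 to 265 and 247 to 299 (log2 fold change 0.15, 95% interval -0.07 to 0.36, adjusted p = 0.651). Tspan31 (chromosome 10, 127067280 to 127070264) had 559.9 to 732 and 591 to 702 (log2 fold change -0.02, 95% interval -0.23 to 0.19, adjusted p = 0.957). The groups overlapped for all 3 genes.

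The Tspan31 value is uncertain, because its gene overlaps the cell cycle kinase gene Cdk4, which had 4064 to 5867 counts on the other strand, and the strand setting of the counting is not given in the sources used here. The genes overlapping the other members held far fewer counts than Cdk4. They had at most 30 counts a library for Tspan32 (Tspan32os), 50 for Cd82 (Mir7001), 32 for Cd81 (R74862), 58 for Cd9 (Gm28809), 9 for Cd151 (Gm10575) and 3 for Cd37 (Tead2). Cd9 itself had only 220 to 433 counts, beside 15 to 58 of Gm28809 on the other strand, so its value shares some of this uncertainty.

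Cd63 (chromosome 10, 128900989 to 128912822), the late endosome tetraspanin, had 2 to 6 counts in each library and was left out by the filter on low counts. In normalized counts it lay from 2.12 to 4.27 in Ndrg3 ctrl and from 1.92 to 5.45 in Ndrg3 TKO. At this depth a difference in Cd63 was not detectable.

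The rest of the family was taken by name. Of 21 other tetraspanin genes, 9 were tested and 0 were called by edgeR, with 2 at an unadjusted p under 0.05 (Tspan9 and Rom1) and 1 called by DESeq2 (Tspan9). Over all tested genes 10.9% had an unadjusted p under 0.05, and DESeq2 called 1.92% of those it tested. The log2 fold changes of the 9 had a median of -0.09 and ran from -0.32 to 0.45, with 7 of the 9 below 0, against 51.2% of all tested genes. The other 12 had at most 4 counts in any library, and 4 of these, Tspan8, Tspan10, Tspan11 and Tspan12, had 0 counts in all 8 libraries, where the floor of 3 counts allows a level of up to 0.0918 to 0.142 CPM.

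**Figure D4:**
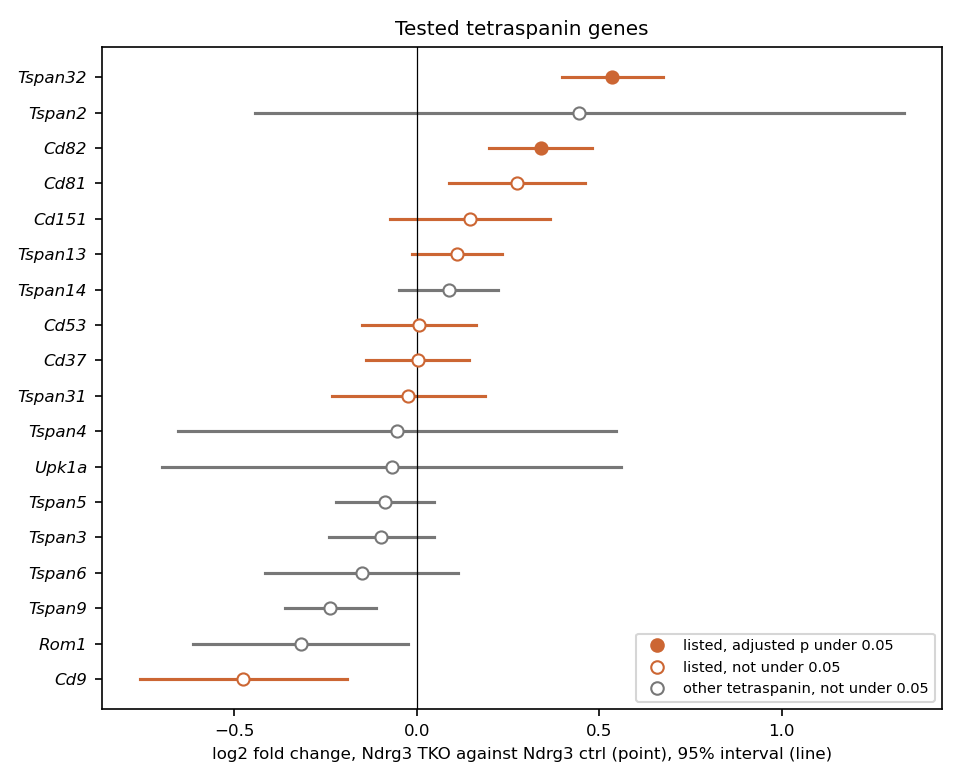
Log2 fold changes (points) of the 18 tested tetraspanin genes with 95% intervals (lines), Ndrg3 TKO against Ndrg3 ctrl, orange for the listed genes and grey for the others, filled where the adjusted p is under 0.05. Tspan32 at 0.54 and Cd82 at 0.34 are filled, and Cd9 at -0.47 lies lowest with a wide interval.

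Tspan9 (chromosome 6, 127961396 to 128143594), best known from platelets, had normalized counts of 11979, 10505, 10347 and 11105 in Ndrg3 ctrl and 9795, 9327, 9374 and 8795 in Ndrg3 TKO. The groups did not overlap, and Ndrg3 TKO was the lower. The log2 fold change was -0.24 (SE 0.0581, 95% interval -0.36 to -0.11, unadjusted p = 0.00111), and the adjusted p of 0.0779 missed the threshold. With the replicate number as a block in edgeR the adjusted p was 0.00199. With 76.3 ± 5.14 RPKM in Ndrg3 ctrl and 64.7 ± 2.85 in Ndrg3 TKO, it is the most abundant tetraspanin outside the 10.

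The tetraspanins that escort Adam10 were represented by Tspan14 and Tspan5. Tspan14 had 50.5 ± 3.96 RPKM in Ndrg3 ctrl and a log2 fold change of 0.09 (adjusted p = 0.666), and Tspan5 had 5.60 ± 0.395 RPKM and a log2 fold change of -0.09 (adjusted p = 0.659). The other members of this subgroup, Tspan10, Tspan15, Tspan17 and Tspan33, had at most 4 counts a library. Adam10 itself had 5176 ± 676 normalized counts in the controls and 5151 ± 376 in Ndrg3 TKO cells (log2 fold change -0.01, adjusted p = 0.987). Tspan3 had 5.87 ± 0.333 RPKM in Ndrg3 ctrl and a log2 fold change of -0.10 (adjusted p = 0.643), and Rom1, a tetraspanin of photoreceptor discs, had 3.56 ± 0.366 RPKM and a log2 fold change of -0.32 (adjusted p = 0.416).

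Of 28 genes of proteins known to bind tetraspanins at the surface, 23 were tested and 0 were called by edgeR, with 5 at an unadjusted p under 0.05 (among them Cd2, Dpp4, Itga4 and Ptgfrn) and 1 called by DESeq2 (Itga4), beside the 10.9% and 1.92% over all genes. Their log2 fold changes had a median of -0.07 and ran from -0.44 to 0.19, with 19 of the 23 below 0, beside 51.2% of all tested genes. The 5 most abundant by RPKM were the coreceptor chains Cd8b1 (log2 fold change -0.02, adjusted p = 0.929) and Cd8a (-0.02, 0.948), the integrin subunit Itgb7 (0.01, 0.987), the adhesion receptor Cd2 (-0.14, 0.433) and the phosphatase Ptprc (0.05, 0.837). The groups did not overlap for 2 of the 23, Itga4 and Dpp4, a share near the 7.04% of all tested genes. Itga4, the α4 integrin subunit, had 12498 to 13938 normalized counts in Ndrg3 ctrl and 14699 to 15936 in Ndrg3 TKO (log2 fold change 0.19, SE 0.0553, adjusted p = 0.142). Dpp4, a surface peptidase, had a log2 fold change of -0.13 (adjusted p = 0.308).

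Markers of other cells that the sort could hold were summed for each library. The summed level of 7 B cell markers was 252 to 301 CPM in Ndrg3 ctrl and 262 to 312 CPM in Ndrg3 TKO, nearly all of it Ighm, with Ms4a1 at 0 in all libraries. Only Ighm and Cd79b of these 7 were tested, and neither was called. Cd79b had 314 to 377 normalized counts in Ndrg3 ctrl and 234 to 266 in Ndrg3 TKO, groups that did not overlap (log2 fold change -0.43, adjusted p = 0.0529). Markers of myeloid and dendritic cells, mostly Cst3, summed to 17.3 to 24.96 and 19.4 to 23.7 CPM. Those of the CD4 lineage, mostly Foxp3, summed to 4.50 to 6.91 and 5.10 to 8.18 CPM. The groups overlapped for Foxp3 (log2 fold change 0.53, adjusted p = 0.293 by edgeR). Cd4 (-0.30) and Cd40lg (-0.28) lay below 0, and Zbtb7b was too low to be tested. Thymic epithelium markers summed to 1.68 to 3.05 and 1.20 to 2.57 CPM. Immature thymocyte markers, mostly Dntt, summed to 21.1 to 31.1 and 25.3 to 35.1 CPM, and of the 3 tested 0 were called. Dntt had 410 to 541 normalized counts in Ndrg3 ctrl and 554 to 736 in Ndrg3 TKO, groups that did not overlap. Its log2 fold change was 0.45 (adjusted p = 0.0783 by edgeR). The groups overlapped for Arpp21 (log2 fold change 0.35) and for Rag1 (-0.46).

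Called genes were found in 2 marker lists. Of 5 natural killer and innate-like T cell markers, 3 were tested and 1 of them, Klrb1c, was called higher, with Ncr1 at 0 in all libraries and a sum of 42.3 to 46.5 CPM in Ndrg3 ctrl and 45.3 to 60.6 CPM in Ndrg3 TKO. Trdc, of the same list, had a log2 fold change of -0.03 and was not called, and Zbtb16, too low to be tested, had 4.23 to 9.70 normalized counts in Ndrg3 ctrl and 0.909 to 2.67 in Ndrg3 TKO, groups that did not overlap. Of 6 memory-like CD8 T cell markers, 3 were called lower (Eomes, Ccl5 and Cxcr3), with a sum of 376 to 459 and 350 to 409 CPM. By exact permutation tests (2-sided) the sums of the 9 lists gave p from 0.0571 to 0.857, each with an adjusted p of 0.386 or above over the 9. The innate-like sum was mostly Klrd1 (log2 fold change 0.31) and the memory-like sum mostly Il2rb (-0.07), and neither gene was called. The tests of these sums therefore say little about the called genes, whose counts were far lower. The part of the cells of these lists in the Tspan32, Cd82 and Cd9 values was not tested.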

How the data were processed

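RNA of sorted CD8SP thymocytes was sequenced in 8 libraries, 4 a group, grouped by their labels. After trimming (cutadapt) and alignment to GRCm38.p4 (STAR), the authors counted reads per gene with featureCounts and deposited these raw counts, which are not normalized. The library kit keeps strand, and the strand setting of the counting is not given in the sources used here.

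Symbols, positions and exonic lengths came from a GENCODE annotation of GRCm38, in which 47224 of the 47937 genes (98.5%) matched by Ensembl identifier. The authors counted with an older GENCODE release. Genes were filtered with filterByExpr, scaled by TMM and tested with edgeR 4.0.16 (glmQLFit, robust, glmQLFTest, 2-sided) in R 4.3.3 with limma 3.58.1, with Benjamini-Hochberg adjustment over 14633 genes and a threshold of 0.05. SE is the size of the log2 fold change over the root of F. Floors of 3 counts cover counting error only. The study's methods name DESeq2, used here as an alternative (1.42.0). Figures were drawn with matplotlib 3.10.9.

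The members and all lists were chosen with earlier results of these data known. Genes named singly are the members, Ndrg3, the called and the 5 most abundant genes of each further list, neighbours of called members, genes between Tspan32 and Cd81, and the 3 genes most like Tspan32 and Cd82. Genes at an unadjusted p under 0.05, Adam10, the low tetraspanins, overlapping genes, and single markers were named after their values were seen. Libraries of a group differed by 9.95 to 33.6 (chi-square per gene), so none duplicates another. Protein sequences are not shown here. Some genes of the lists are not reported here by name.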

Additional observations from a re-analysis of the deposited data

Results flagged for a closer look

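In 3 of 62 groups of 4 libraries checked with Dixon's test, 1 library stood apart from the other 3, and about 3.1 would do so by chance at 1 in 20. Ndrg3 ctrl replicate 2 had 3645 normalized counts of Tspan32, against 4315 to 4446 in the other Ndrg3 ctrl libraries. The same library had 679.7 normalized counts of Dram2, against 807.3 to 824.6 in the others, and Dram2 was named because it follows Tspan32 across libraries. Ndrg3 TKO replicate 3 had 701.8 normalized counts of Tspan31, against 590.6 to 609.6 in the other Ndrg3 TKO libraries.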

How the results depend on the processing

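Genes called over all tested genes numbered 168, against 309 with DESeq2, 274 with no filter on low counts, 437 with the presence of Y-linked RNA as a covariate, 166 with DESeq2 size factors, 144 with a minimum of 10 counts a library and 90 to 158 with a library left out. Same-numbered libraries correlated by 0.18, 0.42, -0.06 and 0.30, and 3 of the 4 Ndrg3 ctrl libraries correlated best with their own number, so the numbers do not pair all libraries; a fit with a replicate block called 800 genes. Members called numbered 2, against 4 with the replicate block (with Cd81, adjusted p = 0.0265, and Cd9, 0.00831), 3 with DESeq2 or no filter, where Cd9 was added (0.0467 and 0.0213), and 1 to 2 with a library left out, where Cd9 was called without Ndrg3 ctrl replicate 4 (0.0473). Other tetraspanins called numbered 0, against 1 (Tspan9) with DESeq2, no filter, the block or the Y-linked covariate. Partners called numbered 0, against 1 with DESeq2, 4 with the block and 4 with the Y-linked covariate. No library left out gave a call in either list. Genes near 0 changed sign: with the Y-linked covariate Cd53 (-0.027), Cd37 (-0.0233), Itgb7 (-0.0395), Mrpl23 (-0.0186), Dram2 (0.0284), and for Dram2 also with no filter (0.00147), the minimum of 10 counts (7.44e-05) and the block (0.00262). With a library left out the log2 fold changes ran from -0.0457 to 0.0505 for Cd53, -0.083 to 0.0522 for Tspan31, -0.0287 to 0.0473 for Cd37, -0.0601 to 0.0199 for Cd8b1, -0.0608 to 0.0624 for Itgb7, -0.0461 to 0.0234 for Ext2, -0.0488 to 0.048 for Mrpl23, -0.371 to 0.0329 for R74862, -0.061 to 0.0255 for Dram2, -0.0437 to 0.0285 for Usp5 and -0.106 to 0.0137 for Dhcr7. The cause was not tested. Low counts limit R74862, Gm16089, Gm24145, Upk1a, Tspan4, Tspan2 and Cd63.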
